A study of Mus musculus with 5 samples.

Results

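The genes described here are 9 growth factor pathway genes with a probe on a small expression array: the ligands Fgf2, Pdgfa and Hgf, and the receptors Fgfr1, Fgfr2, Fgfr4, Pdgfra, Pdgfrb and Egfr. They were chosen by symbol from the platform annotation, 1 probe for each gene, out of 223 probes of which 205 carry a gene symbol. The arrays were hybridised with total RNA from soleus, a slow postural calf muscle, of 5 wild-type C57Bl/6 mice at day 7 of reloading. Reloading follows a period in which the muscle was unloaded, so all 5 mice shared that earlier unloading. The mice are numbered 1, 3, 4, 5 and 6 as in the labels, which give neither age nor sex. Reloaded mice are the only group in the labels used here, so the 5 mice were compared with each other, and no difference between conditions was measured. Each mouse had 1 array, so the spread between mice includes measurement noise. The RNA came from whole muscle sections, in which fewer cells of a type and less RNA per cell cannot be told apart.

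Fibroblast growth factors, platelet-derived growth factors, epidermal growth factor and hepatocyte growth factor all signal through receptor tyrosine kinases, which dimerise on ligand binding and switch on the Ras-MAP kinase and PI3 kinase cascades. In skeletal muscle, HGF and FGF2 are known as activating signals of satellite cells, the muscle stem cells. PDGFRA marks the fibro-adipogenic progenitors between the fibres, and PDGFRB marks the pericytes around small vessels.

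Signals are given as deposited, in arbitrary units of unknown reference, and each array differed in brightness. The median of the 147 probes that were above 0 on all 5 arrays ran from 0.0403 to 0.0788 between arrays, a 1.96-fold range. Differences between mice are therefore also given as multiples of the array's own median. The lowest value of each array lay below 0, and its size, 0.0041 to 0.0168, was used as a working noise floor. A signal at or below the floor bounds a level but does not show that a transcript was absent. How bright a probe is depends on its own sequence as well as on the transcript, so an order of signals between genes is not an order of transcript amounts. The array of mouse 1 had the highest floor, and its mean rank correlation with the other arrays over 147 probes was 0.878, against 0.941 to 0.947 for the others. Muscle fibre markers marked the tissue as labelled: the 7 markers on the array were above the floor in every mouse, with the slow myosin Myh7 between 2.86 in mouse 5 and 5.60 in mouse 6.

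With a threshold of 0 on all 5 arrays, the 6 receptors of the set were detected and its 3 ligands mostly were not. Of the 9 genes, 7 were above 0 on all 5 arrays, or 77.8%, against 65.9% of all 223 probes. These were all 6 receptors and 1 of the 3 ligands, Fgf2. Above the noise floor on all 5 arrays were 4 genes, or 44.4%, against 45.3% of all probes. These were Fgfr1, Fgfr2, Pdgfrb and Egfr, and the count of ligands was 0. The same 4 genes were above the median of all 223 probes on the array in every mouse, against 41.7% of all probes. That median ran from 0.013 in mouse 5 to 0.0338 in mouse 6. On each array it was lower than the array median by which signals are scaled here. As a whole the genes were thus detected about as often as other probes, and the ligands lay at the dim end of the set.

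**Figure D1:**
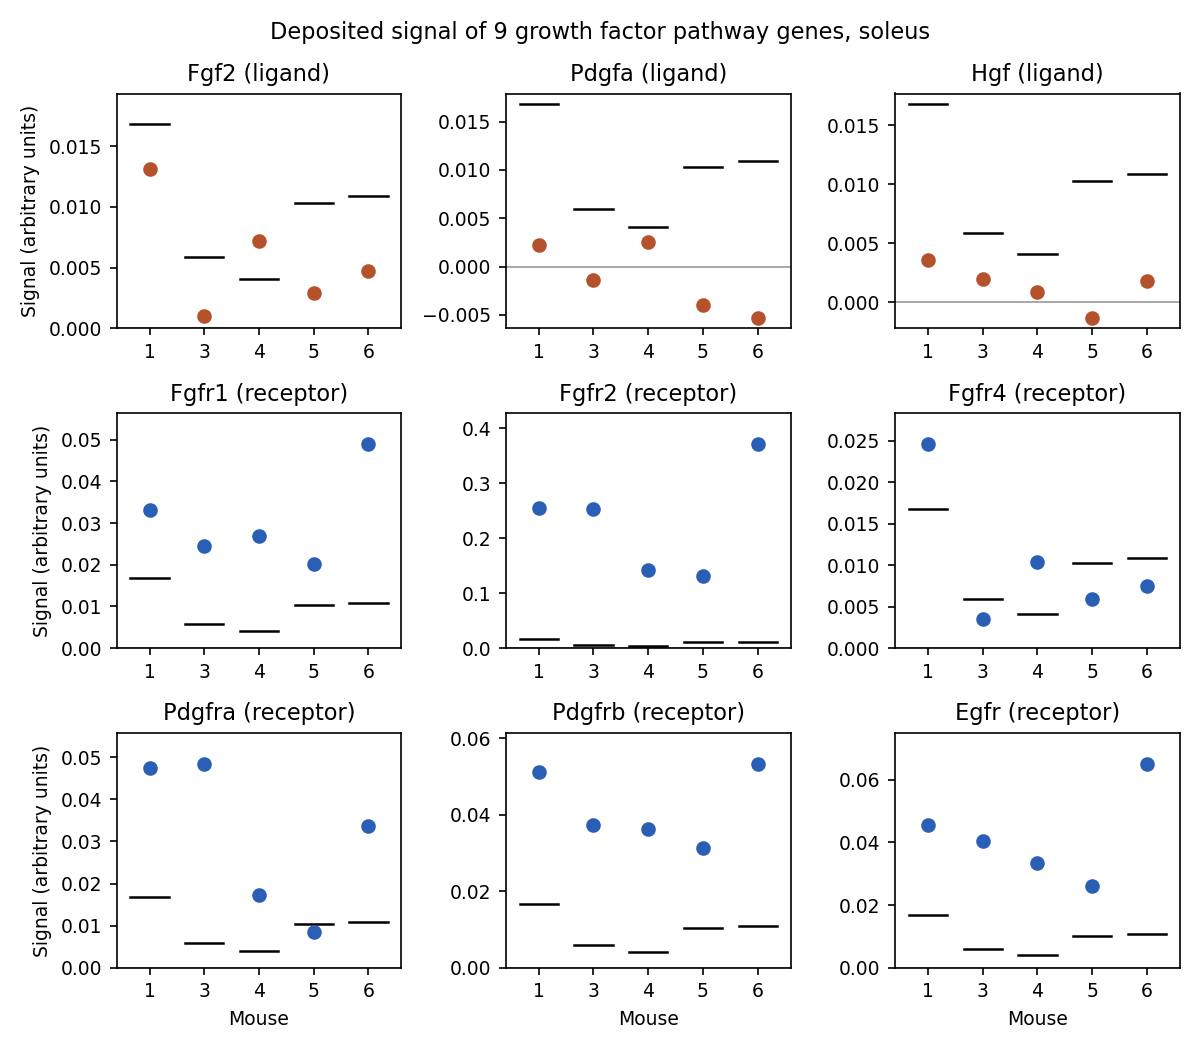
Deposited signal (arbitrary units, linear axis, own scale for each gene) of the 3 ligands and 6 receptors in mice 1, 3, 4, 5 and 6. Each point is 1 array, and the black bar is that array's noise floor. Fgfr1, Fgfr2, Pdgfrb and Egfr lie above the bar in every mouse, while Hgf and Pdgfa lie below it in every mouse.

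Hgf, the ligand of the receptor Met, had signals of 0.0036, 0.0020, 0.0009, -0.0013 and 0.0018 in mice 1, 3, 4, 5 and 6. All 5 values lay below the floor of their array. Pdgfa, the chain of the PDGF-AA dimer that binds the alpha receptor, had signals of 0.0022, -0.0014, 0.0025, -0.0040 and -0.0053 in the same mice. It was above 0 in 2 mice and above the floor in 0. No order of the mice can be read for Hgf or Pdgfa.

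Fgf2, the basic fibroblast growth factor, gave 0.0131, 0.0010, 0.0072, 0.0029 and 0.0047 in mice 1, 3, 4, 5 and 6. It exceeded the floor in mouse 4 alone, at 1.76 times the floor, and was at 0.780 times the floor in mouse 1. After quantile normalisation, which gives every array the same distribution of signals, its mean was 0.00554 ± 0.00387 (SD, n = 5). With 4 of 5 values below the floor, no order of the mice can be read for Fgf2 either.

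Pdgfb and Egf, further ligands of these receptors on the array, gave more signal than the ligands above. Pdgfb, the chain of PDGF-BB, was at 0.0320, 0.0168, 0.0160, 0.0090 and 0.0171 in mice 1, 3, 4, 5 and 6. Egf was at 0.0190, 0.0095, 0.0196, 0.0087 and 0.0248 in the same order. Each was above the floor on 4 of 5 arrays. The dimness of Fgf2, Pdgfa and Hgf was thus not a feature of every ligand probe on the array.

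Fgfr2, an FGF receptor, was the brightest of the 9 probes on every array. It measured 0.2542, 0.2540, 0.1422, 0.1310 and 0.3718 in mice 1, 3, 4, 5 and 6, and it stood between percentiles 81.8 and 89.0 of all probes on its array. Per array median it was highest in mouse 3, at 5.63, and lowest in mouse 4, at 3.22, with mice 1 and 6 at 4.58 and 4.72 and mouse 5 at 3.25. Mice 4 and 5 were the lower ones as deposited, per array median and after quantile normalisation, and mice 5 and 1 when scaled to the array total. The highest mouse was mouse 6 as deposited and mouse 3 with the other scalings. Its normalised mean was 0.233 ± 0.0743 (SD, n = 5).

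Fgfr1, an FGF receptor of satellite cells among other cells, gave a signal of 0.0332, 0.0244, 0.0268, 0.0201 and 0.0490 in mice 1, 3, 4, 5 and 6. Per array median it lay between 0.499 and 0.622, a 1.25-fold range, against 2.44-fold as deposited. Scaled to the array total the range was 1.57-fold, so how little the mice differed depended on the scaling. Its normalised mean was 0.0294 ± 0.00276 (SD, n = 5).

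Fgfr4, the FGF receptor linked to muscle regeneration, was dim and variable. Its signal was 0.0246, 0.0035, 0.0104, 0.0059 and 0.0075 in mice 1, 3, 4, 5 and 6. Only mice 1 and 4 exceeded the floor of their array, at 1.46 and 2.54 times the floor. Mouse 1 was the highest with every scaling used, and no order can be read among mice 3, 5 and 6. The normalised mean was 0.00992 ± 0.00670 (SD, n = 5). Fgfr3, the remaining FGF receptor on the array, was at 0.0084, 0.0070, 0.0033, -0.0012 and -0.0001 in mice 1, 3, 4, 5 and 6, and exceeded the floor in mouse 3 alone.

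Egfr, the receptor of EGF, gave 0.0455, 0.0404, 0.0334, 0.0260 and 0.0651 in mice 1, 3, 4, 5 and 6. Per array median the 5 mice lay between 0.645 in mouse 5 and 0.896 in mouse 3, a 1.39-fold range. Mouse 5 was the lowest with every scaling used. Its normalised mean was 0.0402 ± 0.00287 (SD, n = 5).

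Pdgfrb, the PDGF beta receptor, gave 0.0513, 0.0374, 0.0362, 0.0314 and 0.0534 in mice 1, 3, 4, 5 and 6. Its 1.70-fold range as deposited was the narrowest of the 7 genes above 0 on all arrays, and per array median the range was 1.36-fold. The order of the mice changed with the scaling, with mouse 6 highest as deposited and lowest per array median. Its normalised mean was 0.0415 ± 0.00428 (SD, n = 5).

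Pdgfra, the PDGF alpha receptor, differed far more between mice than the beta receptor. Its signal was 0.0474, 0.0485, 0.0172, 0.0086 and 0.0336 in mice 1, 3, 4, 5 and 6, and only the value of mouse 5 lay below the floor of its array. Per array median it reached 1.07 in mouse 3 and 0.854 in mouse 1, against 0.390, 0.213 and 0.426 in mice 4, 5 and 6. Mice 3 and 1 were the 2 highest and mouse 5 the lowest with every scaling used. The normalised mean was 0.0309 ± 0.0174 (SD, n = 5), so that its coefficient of variation (CV, SD over mean in percent) of 56.4% compared with 10.3% for Pdgfrb and with a median of 32.9% over the 147 probes.

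The median receptor probe was brighter than the median ligand probe in each mouse. The median of the 6 receptors was 0.0464, 0.0389, 0.0301, 0.0231 and 0.0512 in mice 1, 3, 4, 5 and 6. The median of the 3 ligands was 0.0036, 0.0010, 0.0025, -0.0013 and 0.0018 in the same mice. On 5 of 5 arrays the dimmest receptor, Fgfr4, was also above the brightest of the 3 ligands, which was Hgf in mouse 3 and Fgf2 in the other mice. In mice 3, 5 and 6, however, both of these values lay below the floor, so no order of Fgfr4 and the ligands can be read there. Genes outside the 9 did not all follow the same division. Pdgfb exceeded Fgfr4 on 5 of 5 arrays and Egf exceeded it on 4, though in mouse 5 all of these values lay below the floor. The receptor Fgfr3 was below Fgf2 in mice 1, 4, 5 and 6, but in mice 1, 5 and 6 both lay below the floor. In mouse 4 Fgf2 alone was above the floor, and in mouse 3 Fgfr3 alone.

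The ratio of 2 signals on the same array does not change when that array is scaled, but it does change when a background is subtracted. Its size reflects the probes, and its change from mouse to mouse includes measurement noise, as each mouse had 1 array. The ratio of Fgfr1 to Fgfr4 was 1.35, 6.97, 2.58, 3.41 and 6.53 in mice 1, 3, 4, 5 and 6. Fgfr1 was the brighter probe in every mouse, and the ratio varied 5.17-fold around a geometric mean of 3.52 (log2 mean 1.82 ± 0.99, SD, n = 5). These figures rest in part on Fgfr4 signals below the floor. The geometric mean was 2.19 with each array's lowest value subtracted, and 1.87 over mice 1 and 4, where both probes were above the floor. In mice 3, 5 and 6 Fgfr4 was below the floor, and with Fgfr4 set to the floor the ratio was at least 4.14, at least 1.95 and at least 4.50. Mice 3 and 6 thus stayed above mice 1 and 4, while the place of mouse 5 is not settled. Without mouse 1 the geometric mean was 4.47.

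The ratio of Pdgfra to Pdgfrb was 0.924, 1.30, 0.475, 0.274 and 0.629 in mice 1, 3, 4, 5 and 6. Pdgfra was the brighter probe in mouse 3 alone. The ratio varied 4.74-fold around a geometric mean of 0.629 (log2 mean -0.67 ± 0.87, SD, n = 5). With the signal of Pdgfra in mouse 5 set to the floor, its ratio was at most 0.328, which is still the lowest. Mice 1 and 3 again stood above mice 4, 5 and 6. Without mouse 1 the geometric mean was 0.571.

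**Figure D2:**
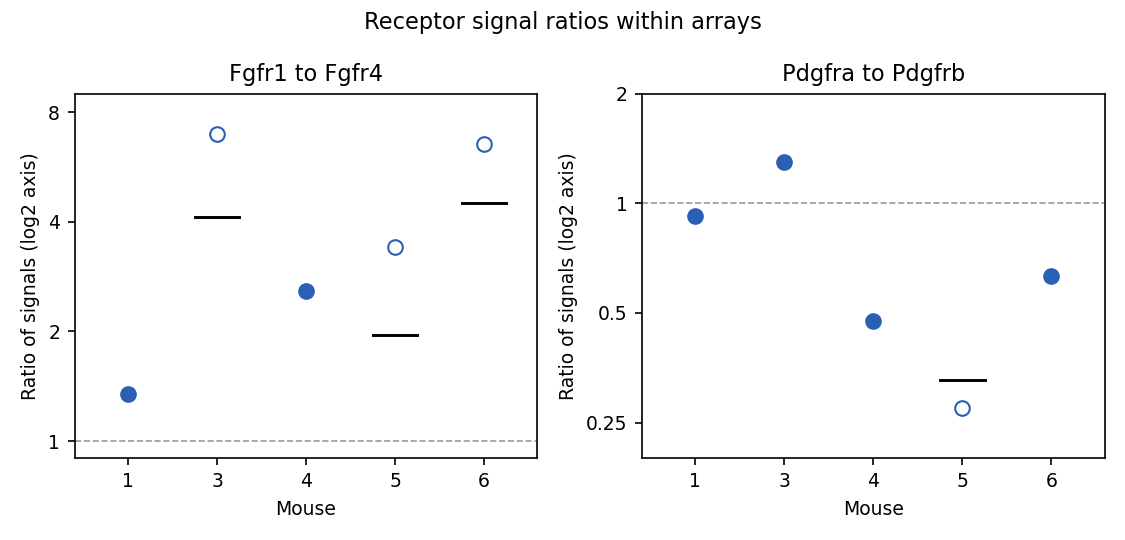
Ratio of the deposited signals of 2 receptor probes on the same array (log2 axis), for Fgfr1 to Fgfr4 at left and Pdgfra to Pdgfrb at right, in mice 1, 3, 4, 5 and 6. Open points mark ratios in which 1 probe was below the noise floor, and the bar beside them gives the bound with that probe at the floor. The Fgfr1 to Fgfr4 ratio is lowest in mouse 1, at 1.35, and the Pdgfra to Pdgfrb ratio is above 1 in mouse 3 alone.

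The ratios among Fgfr1, Fgfr2, Pdgfrb and Egfr were steadier. Egfr to Fgfr1 ran from 1.25 to 1.66, with a log2 SD of 0.16 over the 5 mice. Pdgfrb to Fgfr1 was lowest in mouse 6, at 1.09, and highest in mouse 5, at 1.56 (log2 SD 0.22). Fgfr2 to Fgfr1 was lowest in mouse 4, at 5.31, and highest in mouse 3, at 10.4 (log2 SD 0.36). Among the 21 pairs of the 7 genes above 0 on all arrays, Egfr with Fgfr1 had the smallest spread of the ratio, followed by Fgfr2 with Egfr at 0.21. Fgfr1, Pdgfrb, Egfr and, less closely, Fgfr2 thus kept their proportions across mice as deposited. After quantile normalisation this held for Fgfr1, Pdgfrb and Egfr, while the spread of Fgfr2 was 0.37 with Egfr, 0.52 with Fgfr1 and 0.53 with Pdgfrb, against 0.49 with Pdgfra. Receptor pairs that included Pdgfra or Fgfr4 had wider spreads as deposited, from 0.67 for Fgfr2 with Pdgfra to 1.36 for Fgfr4 with Pdgfra. The pairs with the widest spread joined Fgf2 with Pdgfra, at 1.77, and Fgf2 with Fgfr2, at 1.55, with Fgf2 below the floor in 4 of 5 mice.

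**Figure D3:**
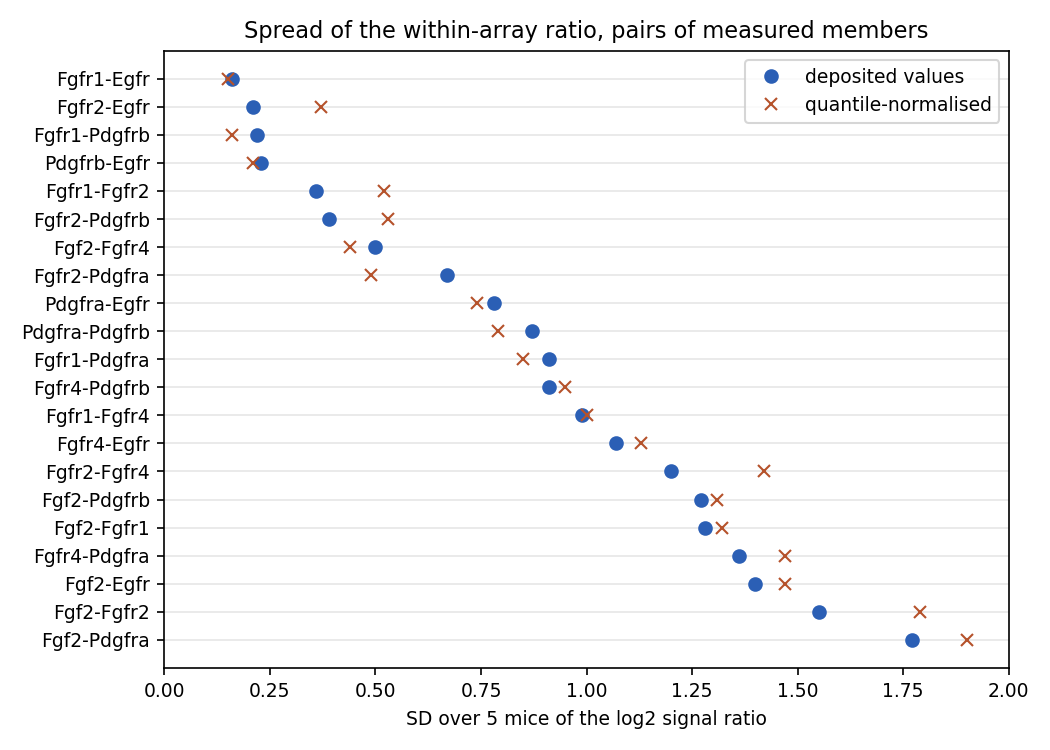
SD over the 5 mice of the log2 signal ratio (horizontal axis) for the 21 pairs of the 7 genes above 0 on all 5 arrays, from deposited values (circles) and from quantile-normalised values (crosses). Pairs among Fgfr1, Egfr and Pdgfrb are at 0.15 to 0.23 with both, and the pairs with Fgf2 other than Fgf2-Fgfr4 are at 1.27 or above.

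Upstream sequences are shown for Egfr and Fgfr2, the pair with the most similar pattern of which both genes have an entry in the set of upstream sequences used. Pdgfra, whose ratio to each of them varied more, is shown as well. Each is the 250 bases before the annotated start in GRCm38.p6, written 5′ to 3′ on the gene's strand, with a GC box (GGGCGG on either strand) in capitals. Egfr is at chr11:16751953-16752202 on the plus strand, Fgfr2 at chr7:130266809-130267058 on the minus strand and Pdgfra at chr5:75152001-75152250 on the plus strand.
Egfr: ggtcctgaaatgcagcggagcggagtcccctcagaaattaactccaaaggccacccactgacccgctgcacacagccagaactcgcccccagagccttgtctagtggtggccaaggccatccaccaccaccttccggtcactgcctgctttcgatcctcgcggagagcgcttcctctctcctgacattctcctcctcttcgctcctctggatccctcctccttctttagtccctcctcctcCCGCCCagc
Fgfr2: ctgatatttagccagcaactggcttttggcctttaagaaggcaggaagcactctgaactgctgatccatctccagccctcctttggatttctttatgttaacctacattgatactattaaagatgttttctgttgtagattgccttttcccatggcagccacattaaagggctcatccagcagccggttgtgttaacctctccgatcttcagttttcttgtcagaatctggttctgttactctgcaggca
Pdgfra: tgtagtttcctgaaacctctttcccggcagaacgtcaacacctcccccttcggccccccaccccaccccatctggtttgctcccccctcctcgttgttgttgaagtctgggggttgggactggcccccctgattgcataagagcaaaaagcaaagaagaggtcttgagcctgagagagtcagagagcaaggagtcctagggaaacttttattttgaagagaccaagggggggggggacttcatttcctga
The Egfr window held 1 GC box, beginning 9 bases before the start, and the other windows held 0. Of 32851 windows of the same length, 32.7% held a GC box. An AP-1 site (TGANTCA, 6.75% of windows) was found in 0 of the 3 windows. An E box (CANNTG, 66.2% of windows, searched on both strands and not overlapping the GC box here) occurred once in Fgfr2, 235 bases before the start, and once in Pdgfra, 182 bases before it. The GC content was 60.8% for Egfr, 44.0% for Fgfr2 and 54.4% for Pdgfra, against a median of 52.4%. The probes do not tell which start site a transcript used, and the matches are a description of these letters only. Entries were found for 7 of the 9 genes, and Fgfr1 and Pdgfrb are named only.

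Fgf2 and Fgfr4 were each other's nearest gene in pattern over the mice. The measure of likeness was the SD over 5 mice of the log2 ratio of 2 signals, computed between each of the 7 genes and 139 other probes with a gene symbol. Between Fgf2 and Fgfr4 it was 0.50, against a median of 1.36 over the 139 probes for Fgf2 and 1.06 for Fgfr4. The ratio of Fgfr4 to Fgf2 was 1.88, 3.50, 1.44, 2.03 and 1.60 in mice 1, 3, 4, 5 and 6. In mice 3, 5 and 6 both probes were below the floor, and mouse 4 alone had both above it. The probes are named 4B and 4C. Whether these names stand for neighbouring spots is not given in the sources used here, and the part of noise or position in the shared pattern was not tested. The next nearest to Fgf2 were Fabp3, the fatty acid binding protein of muscle, at 0.81 and Csf2ra, a cytokine receptor chain, at 0.94. Those to Fgfr4 were Vegfb, a vascular growth factor, at 0.55 and the adaptor gene Ywhaz at 0.56.

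Pdgfra closely followed the pattern over the mice of Mmp2, the gelatinase that degrades basement membrane collagen. Mmp2 gave 0.0547, 0.0596, 0.0180, 0.0115 and 0.0386 in mice 1, 3, 4, 5 and 6. The ratio of Pdgfra to Mmp2 was 0.867, 0.814, 0.956, 0.748 and 0.870 in the same mice, although Pdgfra itself varied 5.64-fold and Mmp2 5.18-fold. Both ranges rest on mouse 5, where the floor was 0.0103, with Pdgfra below it at 0.0086 and Mmp2 little above it. The SD of the log2 ratio was 0.13, against 0.49 for the next gene, the laminin chain Lamb1, 0.51 for the integrin Itgav, and a median of 0.99. Of all 10731 pairs of the 147 probes, 62 had an SD at or below that of this pair. Among the 28 probes whose log2 SD per array median was at least that of Mmp2, this was the smallest of 378 pairs, with the next pair at 0.19 and a median of 1.71. This limit was set by the pair itself, and the pair was picked out after its values were seen. Mmp2 remained the nearest gene to Pdgfra after quantile normalisation (0.10), with the array's lowest value subtracted (0.079) and when each mouse was left out in turn (0.10 to 0.15). The probes are named 5I and 5E, and the part of spot position in the shared pattern was not tested.

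**Figure D4:**
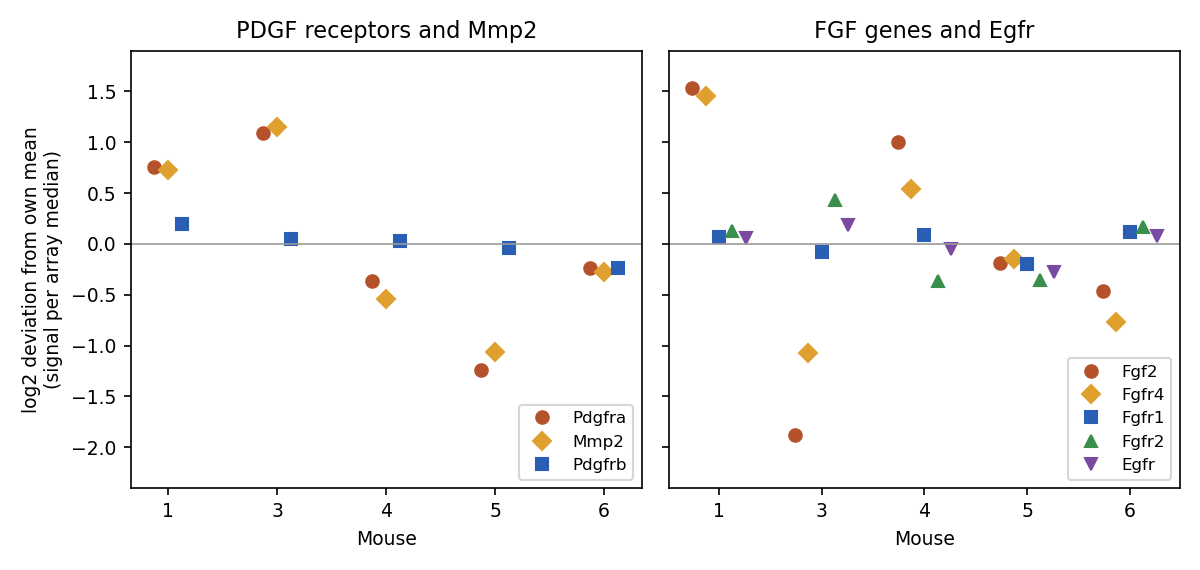
log2 deviation of each gene from its own mean over the 5 mice, with signals taken per array median, for Pdgfra, Mmp2 and Pdgfrb at left and for Fgf2, Fgfr4, Fgfr1, Fgfr2 and Egfr at right. Each point is 1 array. Pdgfra is at 0.76 and 1.09 in mice 1 and 3 and below 0 in the others, with Mmp2 beside it in each mouse, while Pdgfrb stays between -0.24 and 0.20.

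Markers of other cell types were few on the array. Of 7 fibroblast and mesenchymal progenitor markers listed, only Fn1 (fibronectin) was present. The sum of its 2 probes per array median was 24.8, 22.5, 11.7, 14.3 and 26.6 in mice 1, 3, 4, 5 and 6. Mice 1 and 3, which were high in Pdgfra, were also above mice 4 and 5 in Fn1, but mouse 6 was the highest in Fn1 and not in Pdgfra. The 7 endothelial markers present, of 9 listed, summed, per array median, to 7.66, 8.26, 11.7, 12.6 and 11.2 in mice 1, 3, 4, 5 and 6. The sum was thus lower in the mice with high Pdgfra, as were Pecam1, Cdh5, Cd34 and Kdr. Flt1 and Tek had no such order, and Nos3 was highest in mice 1 and 3. Of the 7 endothelial markers, 4 (Pecam1, Cdh5, Kdr and Cd34) were above the floor in every mouse. Flt1 was above it in 4 mice, Tek in 2 and Nos3 in 0. Of 5 pericyte and smooth muscle markers, 0 were present, so the proportion of these cells could not be set beside Pdgfrb. Of the 4 immune markers present, Il1b, Il6 and Csf3r were at or below 0 in every mouse, while Csf2ra was above 0 in every mouse and above the floor in 4, with its highest value, 0.0447, in mouse 1. The list's sum per array median ran from -0.504 to 0.126. Of the 3 satellite cell and myoblast markers, Myf5 was at or below 0 in every mouse, Myog was above the floor in every mouse and Myod1 in 4, and the sum ran from 0.108 in mouse 1 to 0.896 in mouse 6. Of the nerve, blood and fat list Fabp4 was above the floor in every mouse and Lipe at or below 0 in every mouse, and the sum ran from 2.54 to 3.97. The 7 muscle fibre markers summed to between 248 in mouse 6 and 401 in mouse 1. The part of cell composition in the differences of Pdgfra was not tested.

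For the receptors with steady ratios the nearest genes came from several groups. Those to Fgfr1 were the heme oxygenase Hmox1 at 0.12, Egfr at 0.16 and the cytochrome oxidase subunit Cox8a at 0.17, with a median of 0.50 over the 139 probes. Those to Egfr were Fgfr1 at 0.16, the integrin Itgb1 at 0.18 and the muscle transcription factor Mef2c at 0.18, with a median of 0.49. Those to Pdgfrb were Fabp4 at 0.14, Myh7 at 0.15 and the glycolytic enzyme Pgk1 at 0.16, with a median of 0.47. Those to Fgfr2 were the protease inhibitor Timp2 at 0.20, Egfr at 0.21 and the receptor Igf2r at 0.25, with a median of 0.59. Genes with little spread beyond array brightness are near each other by this measure whatever their role. The lists of nearest genes depended on the scaling, and 7 of the 21 gene pairs named in this way were also found after quantile normalisation.

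Of the further pathway genes listed, few stand on the array. Of 28 signal transduction genes 0 were present, and of 6 further receptors only Fgfr3. Of 12 feedback and target genes, Jun and Ccnd1 were present and above 0 in every mouse. Jun, a subunit of the AP-1 transcription factor, was at 0.0838, 0.0889, 0.1258, 0.0857 and 0.2495 in mice 1, 3, 4, 5 and 6, and per array median mouse 6 was at 3.17 and mouse 4 at 2.85. Ccnd1 (cyclin D1) was at 0.0216, 0.0164, 0.0161, 0.0090 and 0.0330. Of 12 genes of ligand release and matrix binding 5 were present. Plau (urokinase, which can activate HGF) was above 0 in every mouse and above the floor in 3, and its receptor Plaur was above the floor in 1. Plat (tissue plasminogen activator) was above the floor in 0, and Mmp9 was at or below 0 in every mouse. Mmp2 was above the floor in every mouse.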

How the data were processed

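Total RNA of soleus from 5 reloaded mice, 3 microgram per array per the labels' protocols, was measured on arrays of 223 probes. The deposited values are linear intensities. For background correction, scanner and scaling, the method is not given in the sources used here. Gene names came from the platform annotation (205 with 1 symbol, 0 with several, 18 with no entry), with symbols updated to GRCm38.p6 for 204. The 9 genes, the gene lists and the marker lists were chosen with earlier results of these data known. Probes above 0 on all 5 arrays (147) were quantile normalised on the log2 scale. Means, SDs and CVs are linear. Ratios and likeness used deposited values. With 1 group no comparison was tested. Dixon's criterion was used to look for outlying samples, and 5 arrays limit the precision. Named were all 9 genes, the 3 genes nearest in pattern to each measured one, and the listed pathway genes. Comparison genes outside this rule, such as the markers, were named from their fixed lists. Alternatives were other detection thresholds, scalings, a floor, background subtraction and leaving out each mouse. The likeness measure was tested on simulated data with a closely matched planted partner and no added background. That setting does not cover signals near or below the floor. Software was Python 3.11.15, numpy 2.4.6, pandas 2.3.3 and matplotlib 3.10.9.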

Additional observations from a re-analysis of the deposited data

How the results depend on the processing

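The count of 7 genes above 0 on all 5 arrays became 4 with the noise floor and 4 with the median of all 223 probes as threshold. It was 7 to 8 when each mouse was left out, with Hgf added without mouse 5. The median CV of the 7 measured genes was 31.9% in the main setting, 42.7% as deposited and 24.2% scaled to the array median, and 22.3% to 37.7% when each mouse was left out. Scaled to the array total it was 27.5% and with all probes kept at a floor 32.4%. The geometric mean ratio of Fgfr1 to Fgfr4 was 3.64 after quantile normalisation and 2.19 with the array's lowest value subtracted, 2.97 to 4.47 when each mouse was left out, and 1.87 over the 2 arrays with both probes above the floor. That of Pdgfra to Pdgfrb was 0.660, 0.722, 0.525 to 0.774 and, over 4 arrays, 0.774. The limits with both probes above the floor were chosen after seeing the data, as were the alternatives for Pdgfra and Mmp2. The receptor median exceeded the ligand median on 5 of 5 arrays also by percentile rank, and on 4 of 4 when each mouse was left out. Of the 21 entries in the lists of nearest genes, 7 were shared after quantile normalisation. The cause of these shifts was not tested. The CVs of Fgfr1 (3.59% to 36.7%), Egfr (4.78% to 35.2%) and Pdgfrb (8.56% to 23.3%) moved by over 1.5 times in 4, 3 and 1 of 9 settings, and those of Fgf2, Fgfr2, Fgfr4 and Pdgfra in 0. Low signal limits Fgf2, Pdgfa, Hgf and Fgfr4. No paired analysis was possible because the labels give 1 group.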

Other observations

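In 20 sets of 5 values (signals of the 9 genes as deposited and per array median, and the 2 receptor ratios), Dixon's criterion for a sample far from the others was met in 0. The nearest to it was Fgfr4 as deposited, where the gap between mouse 1 and the next mouse was 0.673 of the range, against a critical value of 0.71.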
